A study of Rattus norvegicus with 26 samples.

Results

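The genes described here are 10 smooth muscle contractile marker genes, *Tagln*, *Cnn1*, *Smtn*, *Cald1*, *Myh11*, *Myl9*, *Csrp1*, *Tgfb1i1*, *Pln* and *Des*, followed over 6 days in which rat multipotent adult progenitor cells (rMAPCs) were driven toward smooth muscle cells (SMCs). A gene was taken as measured where a gene probe of the array carried its symbol in any case, and it was read by its brightest probe, the one with the highest mean log2 intensity over all arrays. By this rule 9 of the 10 genes were found, through 13 of 41012 gene probes. No probe carried the symbol *Myh11*, and 2 probes that the array annotation describes as Myosin-11, its protein, are given apart from the 9 genes because they were found after the annotation had been read.

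RNA was measured in the rMAPC clones Cl19 and 3c3 on d0, d2, d4 and d6, with 3 arrays per clone and day, and in RNA of primary SMCs on 2 arrays, 26 arrays in all. Both clones are Oct4-expressing lines from bone marrow of female Fischer rats, Cl19 from a donor 3 weeks old and 3c3 from embryonic day 18, and each line is 1 clone. From d0 on, both were kept in basal rMAPC medium with TGFβ1 and PDGF-BB, so that there was no untreated culture on d2, d4 or d6 and time and treatment cannot be told apart. The sample labels call the primary RNA rat aortic RNA of 1 supplier, whereas the methods name primary SMC RNA of another, and the labels give no culture, age or sex for it. The methods call the 3 arrays per day biological replicates without describing the cultures, so the tests measure the spread between these arrays.

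Smooth muscle contracts when myosin, switched on through phosphorylation of its regulatory light chain, pulls on actin filaments. Transgelin (*Tagln*, also SM22α), calponin (*Cnn1*), smoothelin (*Smtn*) and caldesmon (*Cald1*) bind these actin filaments, *Myl9* encodes the regulatory light chain of smooth muscle myosin, and *Myh11* encodes its heavy chain, SM-MHC. *Csrp1* and *Tgfb1i1* (also Hic-5) encode LIM-domain proteins of the actin cytoskeleton and of focal adhesions, *Des* encodes desmin, the intermediate filament protein of muscle, and *Pln* encodes phospholamban, which restrains the calcium pump of the sarcoplasmic reticulum. Tagln and calponin are known as early markers of the lineage and smoothelin and SM-MHC as late ones.

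The level of each gene rests on a probe of 60 bases. The sequences of some probes that read as coding sequence are shown, 5′ to 3′, since they are what the labelled cRNA of each sample was hybridised to. A probe that is not shown may hold coding sequence as well. They are printed in lower case, with none of their bases marked, and with their position in the array's annotation on assembly rn4, which lists some ends before starts. The *Tagln* probe (chr8:48903116-48902736) and the second *Myl9* probe (chr3:147192749-147193232) are annotated over 381 and 484 bases of the genome. The *Cnn1* probe lies at chr8:21219991-21220050, the *Smtn* probe at chr14:84160856-84160797 and the *Tgfb1i1* probe at chr1:187509799-187509858. Of the probes described as Myosin-11, the brighter, A_44_P489468, lies at chr10:769508-769567 and the other, A_44_P274021, at chr10:719479-719538.
Tagln: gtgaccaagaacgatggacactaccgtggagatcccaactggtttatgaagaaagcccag
Cnn1: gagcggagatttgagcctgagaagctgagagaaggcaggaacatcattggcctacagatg
Smtn: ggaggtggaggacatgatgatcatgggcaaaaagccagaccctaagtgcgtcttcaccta
Myl9, second probe: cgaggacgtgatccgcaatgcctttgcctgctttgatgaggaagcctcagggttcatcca
Tgfb1i1: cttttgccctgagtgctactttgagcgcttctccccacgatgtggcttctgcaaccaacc
Myosin-11, A_44_P489468: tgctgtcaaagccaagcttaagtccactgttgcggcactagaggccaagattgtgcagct
Myosin-11, A_44_P274021: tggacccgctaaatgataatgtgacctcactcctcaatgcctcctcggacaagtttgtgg

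Levels are log2 intensities after quantile normalization, which gives every array the same distribution of values, and a difference of 1 is a doubling. A probe's brightness depends on its sequence, so levels are compared between samples and not between genes. All 9 probes were well above background on all 26 arrays and none was saturated. Differences were tested with limma over 24442 probes, with p-values adjusted by Benjamini-Hochberg and a threshold of 0.05, and each is given ± the standard error (SE) of the fit.

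By d6 all 9 genes were higher than on d0 in Cl19, and 8 of the 9 in 3c3, where *Pln* did not pass the test (limma, adjusted p = 0.059). Of all probes tested, 22% rose in Cl19 and 19.7% in 3c3, and none of the 9 genes fell on any day in either clone. The median change of the 9 genes was 3.52 in Cl19 and 2.32 in 3c3, beside medians of -0.20 and -0.21 over all probes. In the unscaled table the median over all probes was 0.10 in Cl19 and 0.09 in 3c3, and 6771 probes rose and 5396 fell in Cl19 instead of 5371 and 7394, and 6167 rose and 4758 fell in 3c3 instead of 4803 and 6989. On each of the 6 slides, which held the 4 days of 1 replicate of 1 clone, every one of the 9 genes was higher on d6 than on d0. In bulk RNA, a larger number of cells that express a gene and more RNA of it per cell cannot be told apart.

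**Figure D1:**
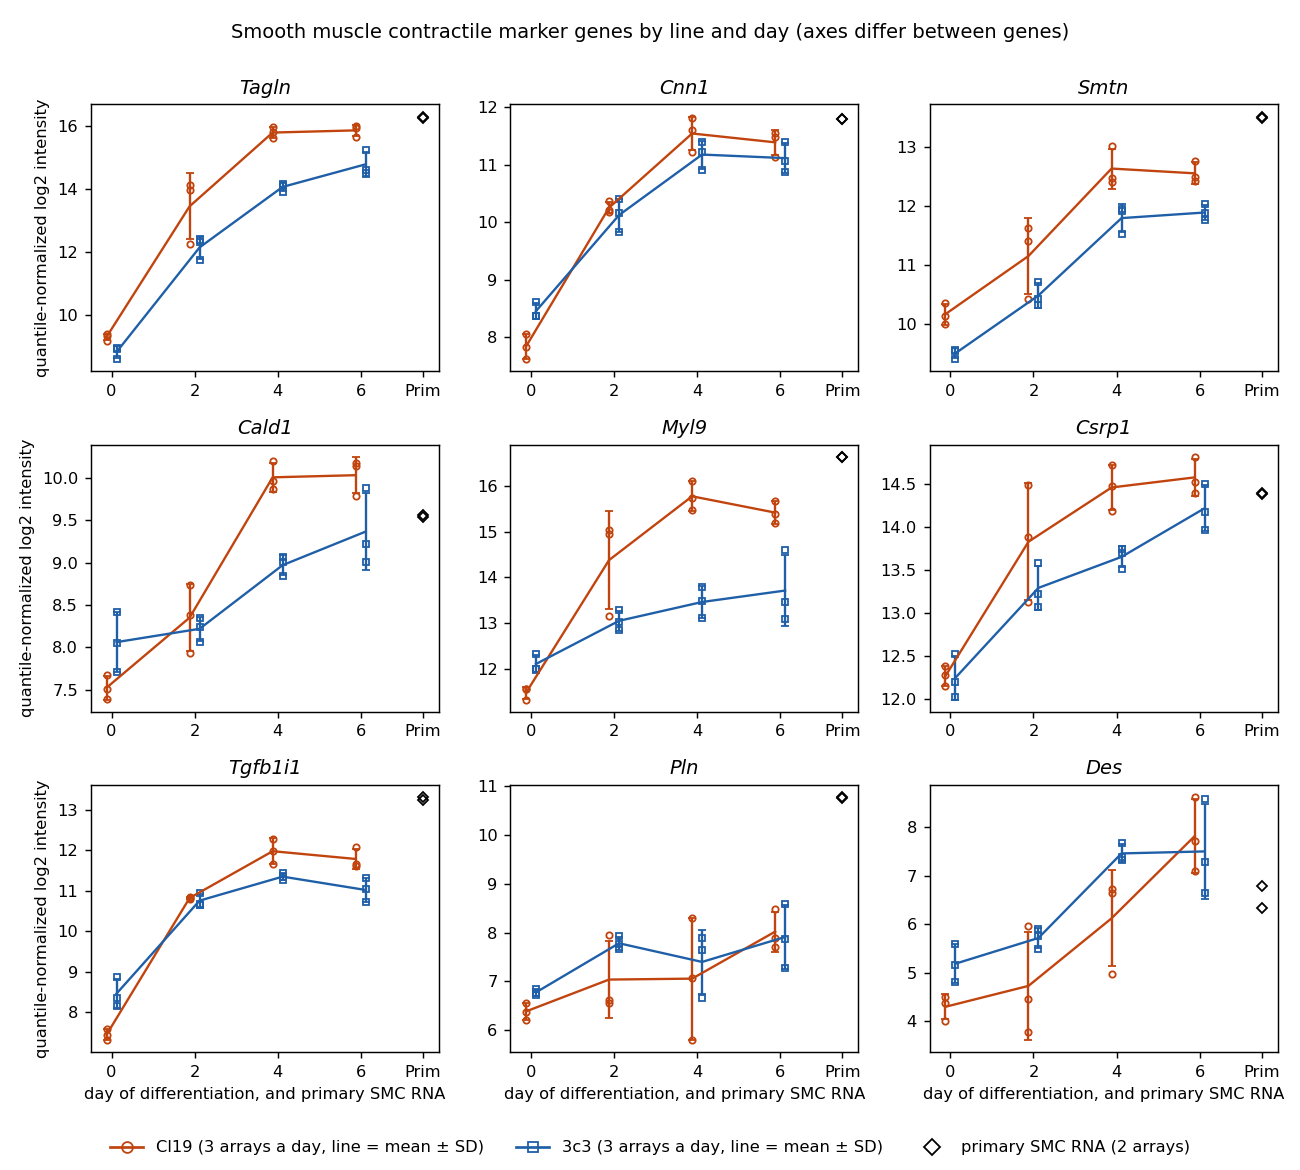
Quantile-normalized log2 intensity of the brightest probe of each of the 9 genes (vertical axis) against the day of differentiation, with circles for the 3 Cl19 arrays and squares for the 3 3c3 arrays of a day, lines and bars for the mean ± SD, and diamonds for the 2 arrays of primary SMC RNA. Tagln climbs from about 9 toward the primary level in Cl19, Pln stays below the primary arrays in both clones, and the d6 means of Des lie above them.

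Of the actin-binding proteins, *Tagln* rose most. In Cl19 its level was 9.39, 9.19 and 9.35 on d0, 12.24, 14.13 and 13.97 on d2, 15.60, 15.79 and 15.95 on d4, and 15.93, 15.98 and 15.64 on d6. In 3c3 it was 8.95, 8.61 and 8.93 on d0, 11.74, 12.39 and 12.30 on d2, 14.13, 13.91 and 14.15 on d4, and 15.24, 14.59 and 14.50 on d6. No array of a later day overlapped those of d0, and the primary arrays stood at 16.29 and 16.25. The d6 difference from d0 was 6.54 ± 0.33 in Cl19, 93.1-fold (adjusted p = 1.9e-11), and 5.95 ± 0.33 in 3c3, 61.7-fold (adjusted p = 8.9e-11).

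*Cnn1*, whose protein binds actin and tropomyosin, rose in the same days. In Cl19 it was at 8.06, 7.62 and 7.82 on d0, 10.19, 10.21 and 10.36 on d2, 11.23, 11.60 and 11.81 on d4, and 11.55, 11.14 and 11.48 on d6. The 3c3 arrays were at 8.37, 8.37 and 8.61 on d0, 9.82, 10.15 and 10.40 on d2, 11.22, 10.92 and 11.40 on d4, and 11.40, 10.88 and 11.07 on d6. The mean was highest on d4 in both clones, and the d6 difference from d0 was 3.56 ± 0.19 in Cl19 (adjusted p = 3.4e-11) and 2.67 ± 0.19 in 3c3 (adjusted p = 2.0e-09).

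*Smtn*, a late marker, changed by the same amount in both clones, 2.38 ± 0.24 in each (adjusted p = 8.4e-08 in Cl19 and 1.5e-07 in 3c3). Its Cl19 arrays were at 10.14, 10.01 and 10.36 on d0, 10.43, 11.42 and 11.63 on d2, 12.41, 12.48 and 13.02 on d4, and 12.42, 12.49 and 12.77 on d6. Its 3c3 arrays were at 9.56, 9.41 and 9.56 on d0, 10.43, 10.32 and 10.72 on d2, 11.53, 11.95 and 11.92 on d4, and 12.03, 11.88 and 11.77 on d6. No d6 array overlapped those of d0, and 3c3 lay below Cl19 on both days. A second *Smtn* probe (A_44_P989357) changed by 1.76 ± 0.20 and 1.70 ± 0.20.

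*Cald1* rose by 2.51 ± 0.22 in Cl19 (adjusted p = 1.9e-08) and by 1.31 ± 0.22 in 3c3 (adjusted p = 7.8e-05). Its arrays in Cl19 were at 7.51, 7.40 and 7.67 on d0, 7.94, 8.73 and 8.38 on d2, 9.96, 9.87 and 10.20 on d4, and 10.18, 10.14 and 9.79 on d6. Those in 3c3 were at 8.42, 7.71 and 8.05 on d0, 8.24, 8.06 and 8.35 on d2, 9.07, 8.84 and 9.003 on d4, and 9.88, 9.22 and 9.004 on d6, and those of d2 overlapped those of d0. On d0 the 3c3 arrays were all above the Cl19 arrays, whereas on d6 their mean lay lower. These values come from the probe at chr4:62156243-62156302, and the gene's other 2 probes were too dim in all groups to be tested.

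*Myl9*, the regulatory light chain, differed most between the clones. In Cl19 it was at 11.55, 11.33 and 11.55 on d0, 13.15, 14.94 and 15.05 on d2, 15.47, 16.12 and 15.74 on d4, and 15.40, 15.19 and 15.67 on d6. For 3c3 the values were 12.32, 11.99 and 12.01 on d0, 12.84, 13.28 and 13.03 on d2, 13.79, 13.11 and 13.49 on d4, and 14.60, 13.09 and 13.45 on d6. From d4 on no 3c3 array reached the lowest Cl19 array of the same day. The rise from d0 to d6 was 3.94 ± 0.39 in Cl19, 15.4-fold (adjusted p = 9.0e-08), and 1.61 ± 0.39 in 3c3, 3.05-fold (adjusted p = 0.0022). The second *Myl9* probe, whose sequence is shown above, gave 4.12 ± 0.37 and 1.64 ± 0.37.

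Among the LIM-domain genes, *Csrp1* was at 12.27, 12.38 and 12.15 on d0, 13.13, 14.49 and 13.88 on d2, 14.19, 14.72 and 14.47 on d4, and 14.52, 14.40 and 14.82 on d6 in Cl19, a rise of 2.31 ± 0.25 (adjusted p = 2.5e-07). In 3c3 it was at 12.02, 12.52 and 12.20 on d0, 13.08, 13.58 and 13.23 on d2, 13.52, 13.75 and 13.70 on d4, and 13.97, 14.50 and 14.18 on d6, a rise of 1.97 ± 0.25 (adjusted p = 3.0e-06). The d6 arrays of both clones together lay on both sides of the primary arrays at 14.39 and 14.40.

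*Tgfb1i1*, a focal adhesion gene named for its induction by TGFβ1, was at 7.43, 7.32 and 7.58 on d0 in Cl19, at 10.81, 10.81 and 10.84 on d2, at 11.99, 11.65 and 12.29 on d4 and at 12.08, 11.67 and 11.60 on d6. In 3c3 it started higher, at 8.86, 8.16 and 8.35, and was at 10.65, 10.67 and 10.95 on d2, 11.26, 11.34 and 11.44 on d4, and 11.31, 10.72 and 11.03 on d6. The arrays of both clones overlapped on d2, whereas on d0 all Cl19 arrays were below and on d6 all above those of 3c3. The rise from d0 to d6 was 4.34 ± 0.19 in Cl19, 20.2-fold (adjusted p = 2.7e-12), and 2.56 ± 0.19 in 3c3, 5.90-fold (adjusted p = 4.3e-09).

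*Des*, desmin, had the largest SE of the 9 genes. In Cl19 it was at 4.37, 4.01 and 4.50 on d0, 5.95, 3.78 and 4.45 on d2, 4.98, 6.74 and 6.65 on d4, and 7.11, 8.62 and 7.73 on d6. The 3c3 arrays were at 5.59, 4.80 and 5.16 on d0, 5.50, 5.75 and 5.90 on d2, 7.67, 7.32 and 7.39 on d4, and 8.58, 6.64 and 7.29 on d6. The d2 arrays overlapped those of d0 in both clones, and the d6 arrays did not. The d6 difference from d0 was 3.52 ± 0.54 in Cl19 (adjusted p = 1.8e-05) and 2.32 ± 0.54 in 3c3 (adjusted p = 0.0015).

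*Pln*, phospholamban, changed least. In Cl19 it was at 6.56, 6.21 and 6.38 on d0, 7.94, 6.56 and 6.62 on d2, 5.80, 8.31 and 7.06 on d4, and 7.88, 7.70 and 8.48 on d6. For 3c3 the values were 6.85, 6.72 and 6.76 on d0, 7.92, 7.66 and 7.77 on d2, 7.89, 6.65 and 7.65 on d4, and 8.59, 7.27 and 7.87 on d6. The d4 arrays overlapped those of d0 in both clones. The d6 difference was 1.63 ± 0.48 in Cl19 (adjusted p = 0.0076) and 1.14 ± 0.48 in 3c3 (adjusted p = 0.059), and without replicate 2 of 3c3 d6 the latter was 1.46 (adjusted p = 0.033).

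The order of onset was read as the first day on which a gene was higher than on d0. On d2, 7 of the 9 genes had risen in Cl19, where 11.2% of all probes had, and 5 in 3c3, where 9.8% had. *Tagln*, *Cnn1*, *Smtn*, *Csrp1* and *Tgfb1i1* were first called on d2 in both clones, and *Cald1* and *Myl9* on d2 in Cl19 and on d4 in 3c3. *Des* was first called on d4 in both clones, and *Pln* on d6 in Cl19 and on no day in 3c3. The first day could depend on the setting. The gene-by-gene test named in the study's methods called 3 genes on d2 in Cl19. *Cald1* on d2 in Cl19 was not called without replicate 2 of that day (0.64, adjusted p = 0.075), by the methods' test (adjusted p = 0.11), or with the mean over its probes (0.29, adjusted p = 0.21). *Myl9* in 3c3 was called already on d2 in the unscaled table (1.11, adjusted p = 0.044) and by the methods' test (adjusted p = 0.030), and not on d4 without the slide of higher background (1.29, adjusted p = 0.093). On d2 in Cl19 the methods' test did not call *Myl9* (adjusted p = 0.059), *Smtn* (adjusted p = 0.17) or *Csrp1* (adjusted p = 0.082). In 3c3 *Smtn* and *Csrp1* lost the d2 call without the slide of higher background (0.89 and 1.06, adjusted p = 0.092 and 0.068). *Des* on d4 in Cl19 was not called by the methods' test (adjusted p = 0.079). *Pln* in 3c3 was called on d2 in the unscaled table (1.35, adjusted p = 0.047) and by the methods' test (adjusted p = 0.0079). On d6 it was called with 75th percentile scaling (adjusted p = 0.049), in the unscaled table (adjusted p = 0.015) and in a fit of 3c3 alone (adjusted p = 0.025). By d4, 8 genes had risen in each clone, against 20.2% and 14.8% of all probes.

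The d2 changes in Cl19 ran from 0.83 ± 0.22 for *Cald1* (adjusted p = 0.010) over 0.98 ± 0.24 for *Smtn* (adjusted p = 0.0047) and 2.90 ± 0.39 for *Myl9* (adjusted p = 2.2e-05) to 4.14 ± 0.33 for *Tagln* (adjusted p = 4.3e-08). Of the change present on d6, the share already present on d2, on the log2 scale, was 77.8% for *Tgfb1i1*, 73.6% for *Myl9*, 68.0% for *Cnn1*, 67.6% for *Csrp1*, 63.2% for *Tagln*, 41.3% for *Smtn* and 33.0% for *Cald1* in Cl19. In 3c3 it was 89.7% for *Tgfb1i1*, 62.8% for *Cnn1*, 58.8% for *Myl9*, 55.7% for *Tagln*, 53.0% for *Csrp1*, 41.1% for *Smtn* and 12.04% for *Cald1*. Among the genes called on d2 in Cl19, *Tgfb1i1* thus stood first and *Cald1* last in both clones, though *Cald1* and *Myl9* were not called on d2 in 3c3. *Pln*, called on no day in 3c3, had 88.7% there. Without replicate 1 of Cl19 d2, *Myl9* (89.3%) and *Csrp1* (82.9%) stood above *Tgfb1i1* (77.9%) in Cl19. Slide by slide the share ran from 72.6% to 81.1% for *Tgfb1i1* in Cl19 and from 73.1% to 98.1% in 3c3. In Cl19 it overlapped those of *Cnn1* (60.9% to 73.6%), *Tagln* (43.6% to 73.4%), *Csrp1* (37.9% to 104.2%) and *Myl9*, and in 3c3 that of *Myl9*, so the order of neighbours was not separated by the spread between slides.

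**Figure D2:**
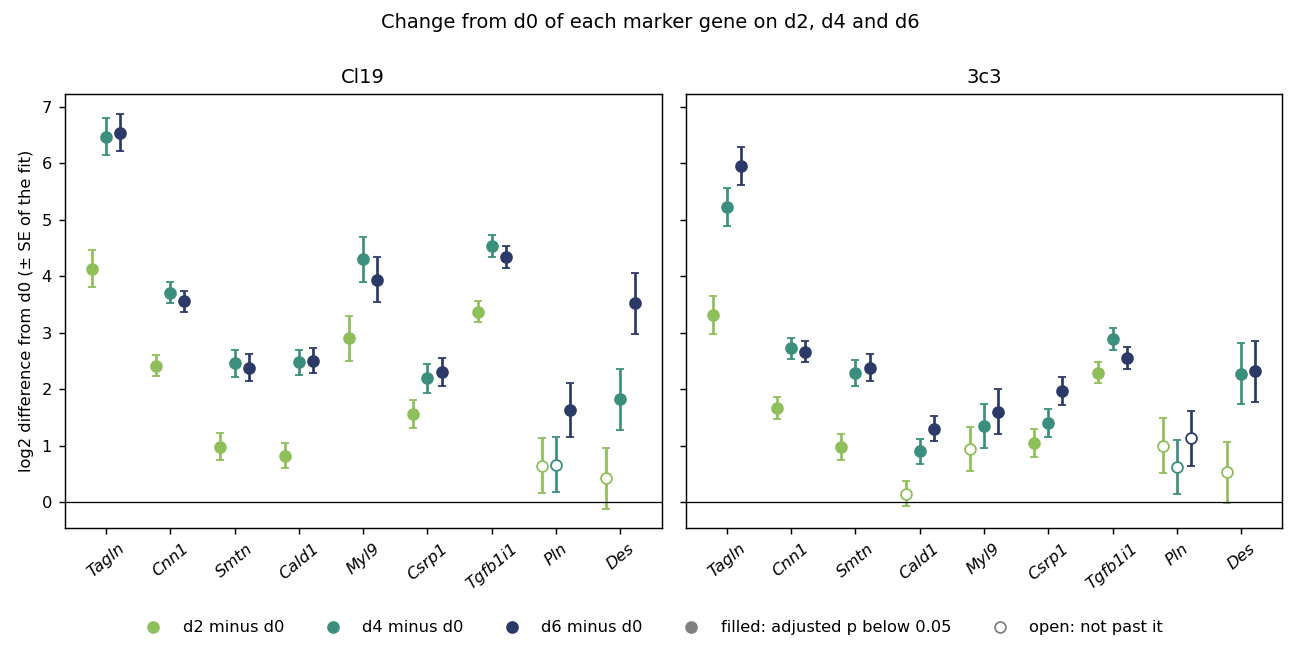
Log2 difference from d0 (vertical axis, ± SE of the limma fit) of each gene on d2, d4 and d6 in Cl19 and in 3c3, with filled points where the adjusted p was below 0.05. Des and Pln have open points on d2 in both clones, Cald1 and Myl9 on d2 in 3c3, and Pln is open on all 3 days in 3c3.

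Between d2 and d4, 6 genes rose further in Cl19 (*Tagln*, *Cnn1*, *Smtn*, *Cald1*, *Myl9* and *Tgfb1i1*), against 9.34% of all probes, and 5 in 3c3 (*Tagln*, *Cnn1*, *Smtn*, *Cald1* and *Des*), against 4.33%. The *Tagln* step was 2.34 ± 0.33 in Cl19 (adjusted p = 8.7e-05) and 1.92 ± 0.33 in 3c3 (adjusted p = 0.0018). In 3c3 the calls of *Cald1* (0.75 ± 0.22, adjusted p = 0.041) and *Des* (1.75 ± 0.54, adjusted p = 0.050) were lost without any 1 of the 6 arrays compared, which left 3 genes. Between d4 and d6 none of the 9 genes was called by limma in either clone, against 3.44% of probes that rose and 3.51% that fell in Cl19 and 5.91% and 4.58% in 3c3. At an unadjusted p under 0.05, 1 gene was higher in Cl19 (*Des*) and 2 in 3c3 (*Tagln*, by 0.72, and *Csrp1*, by 0.57), and the methods' t-test called 0 in Cl19. For the unadjusted threshold the share of all probes was not counted, so nothing is concluded from those numbers. The largest steps were those of *Des* (1.70 ± 0.54, adjusted p = 0.066) and *Pln* (0.96 ± 0.48, adjusted p = 0.29) in Cl19, and both were called without replicate 2 of Cl19 d4 (2.00 and 1.59, adjusted p = 0.038 and 0.029).

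The array of Cl19 d2 replicate 1 stood apart. Over all probes tested it differed from the 3c3 d2 arrays by a root mean square of 0.38 to 0.54 and from the other Cl19 d2 arrays by 0.88 to 0.92, and in 8 of the 9 genes it lay nearer to the 3c3 d2 mean than to the mean of the other Cl19 d2 arrays. For *Myl9* it was at 13.15 and the others at 14.94 and 15.05, while 3c3 lay between 12.84 and 13.28. Without it the d2 change of *Myl9* was 3.52 ± 0.32 instead of 2.90 (adjusted p = 1.3e-07) and that of *Tagln* 4.74 ± 0.22 instead of 4.14 (adjusted p = 3.9e-11), the step of *Myl9* from d2 to d4 was no longer called (0.78 ± 0.32, adjusted p = 0.12) and that of *Des* was (2.01 ± 0.53, adjusted p = 0.019). The same 7 genes were called on d2 with and without it, and the d2 shares of *Myl9* and *Csrp1* became 89.3% and 82.9%, above the 77.9% of *Tgfb1i1*.

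The difference between the clones was tested as the change in Cl19 minus that in 3c3. On d6 it passed the test for 4 of the 9 genes, all with the larger rise in Cl19, while 8.17% of all probes passed in that direction. The difference was 2.33 ± 0.56 for *Myl9* (adjusted p = 0.0054), 1.78 ± 0.27 for *Tgfb1i1* (adjusted p = 1.1e-04), 1.20 ± 0.31 for *Cald1* (adjusted p = 0.010) and 0.89 ± 0.27 for *Cnn1* (adjusted p = 0.024). For all 4, every Cl19 array was below the lowest 3c3 array on d0, and on d6 every Cl19 array was above the highest 3c3 array for *Myl9* and *Tgfb1i1*, while those of *Cald1* and *Cnn1* overlapped. *Des* differed by 1.21 ± 0.76 (adjusted p = 0.35), *Tagln* by 0.59 ± 0.47 (adjusted p = 0.49), *Pln* by 0.50 ± 0.68 (adjusted p = 0.75) and *Csrp1* by 0.34 ± 0.35 (adjusted p = 0.64), and for *Smtn* the estimate was 0.00 ± 0.33. Each clone was scanned on a day of its own, so clone and scan day cannot be told apart in the levels.

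The call of *Cnn1* was lost under several settings, among them scaling by the 75th percentile (0.78, adjusted p = 0.083) and leaving out 1 of 6 arrays, namely replicates 1 and 3 of Cl19 d6, replicate 2 of Cl19 d0, replicates 2 and 3 of 3c3 d6 or replicate 3 of 3c3 d0 (0.77 to 0.87). Without the slide of 3c3 replicate 3, whose negative controls read 28.3 to 44.5 against 10.9 to 14.0 elsewhere, that of *Cald1* was lost as well (1.03, adjusted p = 0.087). On d2 no gene passed the test of the difference between the clones (limma, adjusted p from 0.11 for *Tgfb1i1* upward), where 0.139% of all probes passed with a larger rise in Cl19. At an unadjusted p under 0.05, 4 were higher in Cl19 (*Myl9*, *Cald1*, *Cnn1* and *Tgfb1i1*). The share of all probes at this looser threshold was not counted, so nothing is concluded from that number. Without Cl19 d2 replicate 1, 3 passed, *Myl9* (2.57 ± 0.42, adjusted p = 0.0014), *Tagln* (1.42 ± 0.29, adjusted p = 0.0074) and *Tgfb1i1* (1.08 ± 0.29, adjusted p = 0.048).

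The distance from primary SMCs depended on the scaling more than the changes over time did. In the table of unscaled intensities the primary arrays were dimmer as a whole, with all probes 2.17 higher in Cl19 d6 and 2.09 higher in 3c3 d6 by their median, and after quantile normalization these medians were 0.13 for both. The values below are quantile-normalized, and directions that another scaling turned are named with them.

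On d0 all 9 genes were below the primary level in both clones, by 2.03 (*Cald1*) to 6.96 (*Tagln*) in Cl19 and by 1.38 (*Des*) to 7.44 (*Tagln*) in 3c3, while 31.2% and 31.5% of all probes were called below it. The call of *Des* in 3c3 (adjusted p = 0.046) was lost without replicate 2 or 3 of 3c3 d0 (adjusted p = 0.12 and 0.080), without either primary array (adjusted p = 0.20 and 0.077) and with the slide as a block (adjusted p = 0.11), and in the unscaled table the difference turned to 0.46. There *Cald1* turned as well, to 0.081 in Cl19 (adjusted p = 0.78) and 0.56 in 3c3 (adjusted p = 0.048), and *Des* in Cl19 was not called (-0.36, adjusted p = 0.59). By d6 every one of the 9 genes was nearer to the primary level than on d0 in both clones, as 40.6% of all probes were, which is a count without a test. The same held for all 9 with 75th percentile scaling and with normexp, but in the unscaled table for 6 of the 9 in each clone, where *Cald1*, *Csrp1* and *Des* were farther from the primary level on d6 (2.80, 1.49 and 3.55 above it in Cl19). The part of the log2 distance that had closed ran from 37.3% (*Pln*) to 94.0% (*Tagln*) in Cl19 and from 28.5% (*Pln*) to 91.9% (*Csrp1*) in 3c3.

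On d6 in Cl19, 4 genes remained below the primary level by the test, against 32.8% of all probes. *Pln* was lower by 2.75 ± 0.54, at 14.9% of the primary intensity (adjusted p = 1.5e-04), *Tgfb1i1* was at 35.5% (-1.49 ± 0.21, adjusted p = 3.9e-06), *Myl9* at 43.0% (-1.22 ± 0.44, adjusted p = 0.019) and *Smtn* at 51.8% (-0.95 ± 0.26, adjusted p = 0.0034). In the unscaled table none of the 4 was called below it (*Pln* at -0.46, adjusted p = 0.43, and *Myl9* at -0.52, adjusted p = 0.27) and *Tgfb1i1* and *Smtn* were above it (0.17 and 0.66). *Myl9* lost its call without replicate 2 of Cl19 d6 (adjusted p = 0.054) or either primary array (adjusted p = 0.070 and 0.071).

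The other 5 genes did not pass the test in Cl19. *Tagln* was at 74.8% of the primary intensity (-0.42 ± 0.37, adjusted p = 0.32) and *Cnn1* at 75.1% (-0.41 ± 0.21, adjusted p = 0.087). With the 75th percentile scaling both were called below it (-2.16 and -0.86, adjusted p = 1.2e-05 and 0.0029), and in the unscaled table both were above (0.21 and 1.51). *Csrp1* was at 114% (0.18 ± 0.28, adjusted p = 0.57) and turned to -0.88 with the 75th percentile scaling. *Cald1* was at 140% (0.48 ± 0.25, adjusted p = 0.088) and *Des* at 238% (1.25 ± 0.60, adjusted p = 0.071), and *Des* was called above the primary level without replicate 1 of Cl19 d6 (1.61, adjusted p = 0.035). The primary arrays read 6.80 and 6.34 for *Des* and 9.54 and 9.56 for *Cald1*.

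In 3c3, 6 genes remained below, against 33.4% of all probes. *Myl9* was at 13.2% of the primary intensity (-2.92 ± 0.44, adjusted p = 6.9e-06), *Pln* at 13.8% (-2.86 ± 0.54, adjusted p = 9.6e-05), *Tgfb1i1* at 20.9% (-2.26 ± 0.21, adjusted p = 1.3e-08), *Smtn* at 32.7% (-1.61 ± 0.26, adjusted p = 1.9e-05), *Tagln* at 35.5% (-1.49 ± 0.37, adjusted p = 0.0014) and *Cnn1* at 62.1% (-0.69 ± 0.21, adjusted p = 0.0068). In the unscaled table *Smtn* and *Cnn1* turned to 0.04 and 1.28 and *Pln* was not called (-0.63, adjusted p = 0.28). *Cald1* (-0.18 ± 0.25), *Csrp1* (-0.18 ± 0.28) and *Des* (0.94 ± 0.60) did not pass (adjusted p from 0.17 to 0.59). In the unscaled table *Cald1* and *Csrp1* were above, at 2.16 and 1.09, and *Des* was called above, at 3.19 (adjusted p = 6.4e-05). With the 75th percentile scaling *Csrp1* was called below the primary level (-1.21, adjusted p = 7.0e-05).

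**Figure D3:**
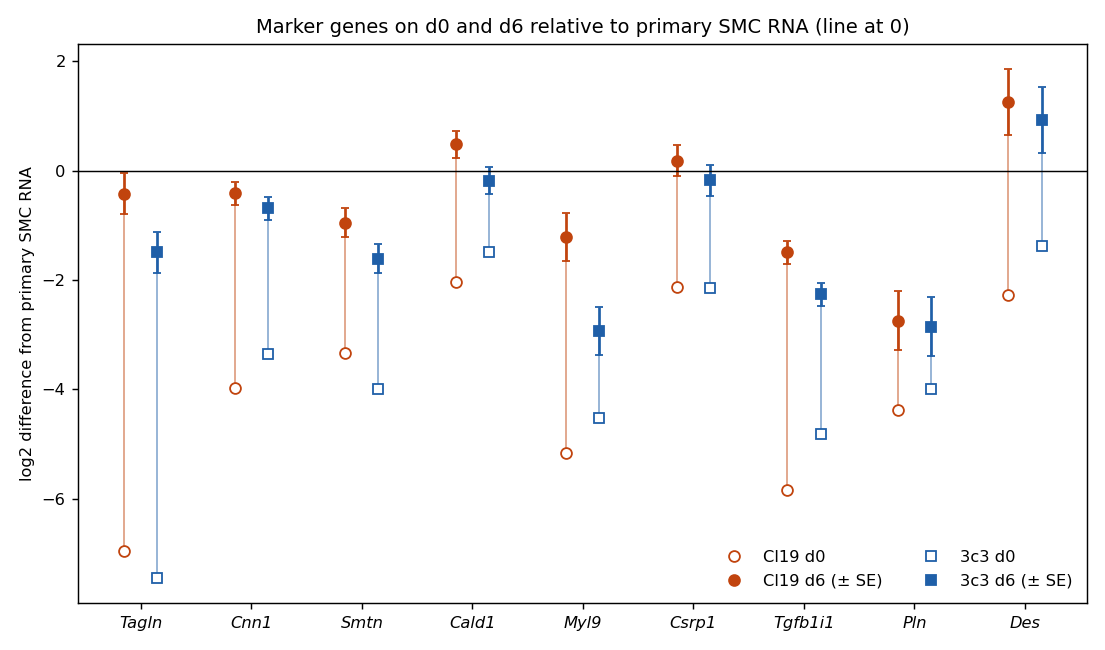
Log2 difference from the mean of the primary SMC arrays (vertical axis, 0 is the primary level) on d0 (open) and d6 (filled, ± SE of the fit) of each gene in Cl19 (circles) and 3c3 (squares). All open points lie below 0 (in the unscaled table Cald1 in both clones and Des in 3c3 turn above it), Pln, Myl9 and Tgfb1i1 stay below it in both clones on d6 (in the unscaled table Tgfb1i1 in Cl19 turns to 0.17), and the means of Des lie above it.

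Over the 9 genes, the median absolute log2 difference of an array from the primary mean was 3.75, 4.18 and 3.98 on d0 in Cl19, 2.47, 2.09 and 1.88 on d2, 1.1004, 0.48 and 0.48 on d4, and 0.63, 1.02 and 0.74 on d6. In 3c3 it was 3.92, 4.05 and 3.94 on d0, 2.63, 2.61 and 2.33 on d2, 1.98, 1.56 and 1.58 on d4, and 1.48, 1.63 and 1.73 on d6. The clones overlapped on d0 and no longer on d4 and d6, where Cl19 was the nearer. Between d4 and d6 the arrays of each clone overlapped. With the 75th percentile scaling the group means on d6 were larger, 1.72 in Cl19 and 2.26 in 3c3, with Cl19 again the nearer. Without scaling, 3c3 was nearest on d2, where its mean was 0.98 against 1.49 on d4 and 1.08 on d6.

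**Figure D4:**
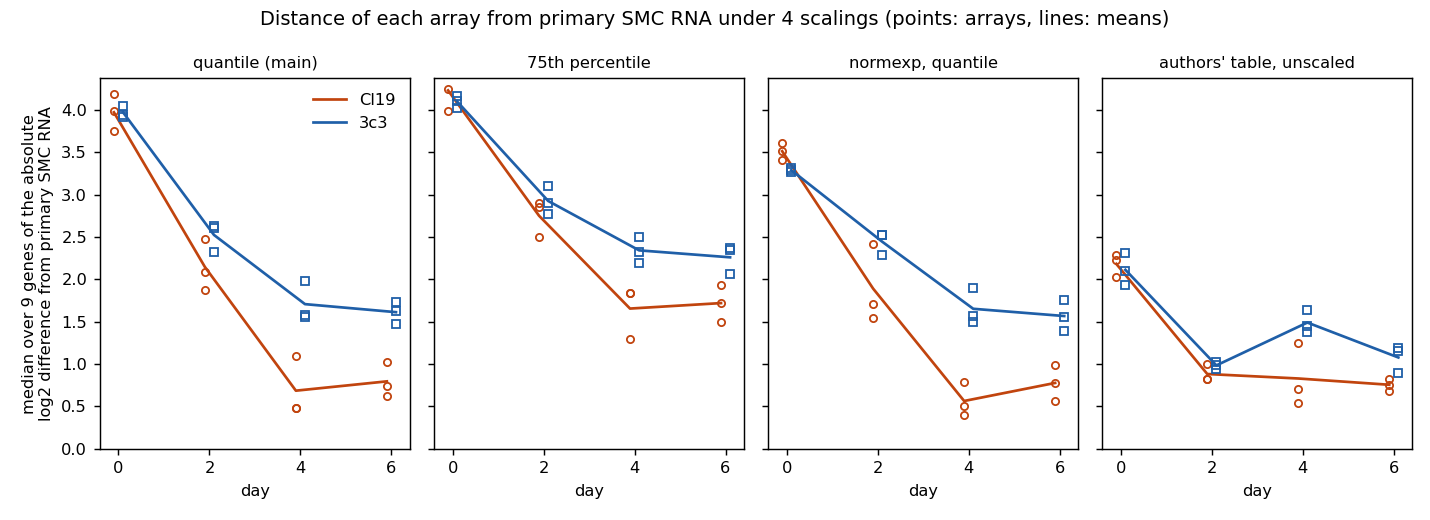
Median over the 9 genes of the absolute log2 difference from the primary SMC arrays (vertical axis) against day, a point per array and lines for group means, under quantile normalization, 75th percentile scaling, normexp background correction with quantile normalization, and in the unscaled table. All arrays of d0 lie farther from the primary level than those of d6 under each of the 4, and the d6 means of Cl19 are 0.80 and 1.72 under the first 2.

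The probes described as Myosin-11, the smooth muscle myosin heavy chain, did not follow the 9 genes. The brighter was at 5.60, 5.40 and 5.78 on d0, 6.40, 5.48 and 6.37 on d2, 6.68, 6.44 and 6.75 on d4, and 5.30, 5.33 and 5.45 on d6 in Cl19. In 3c3 it was at 5.92, 5.56 and 6.13 on d0, 6.09, 6.12 and 6.41 on d2, 6.63, 6.96 and 6.75 on d4, and 5.54, 5.35 and 5.57 on d6. The d4 arrays lay above those of d0 and d6 in both clones, and the d6 arrays overlapped those of d0. It rose by d4 (1.03 ± 0.20, adjusted p = 3.2e-04, in Cl19 and 0.91 ± 0.20, adjusted p = 0.0016, in 3c3) and fell from d4 to d6 (-1.26 ± 0.20, adjusted p = 8.1e-04, and -1.29 ± 0.20, adjusted p = 7.1e-04). The d6 level differed from d0 by -0.23 ± 0.20 and -0.38 ± 0.20 (adjusted p = 0.36 and 0.13).

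In the primary arrays this probe read 10.45 and 10.47, so that on d6 Cl19 was at 2.92% and 3c3 at 3.18% of the primary intensity (-5.10 ± 0.23 and -4.97 ± 0.23, adjusted p = 1.5e-13 and 2.0e-13). The other probe was between 3.82 and 5.15 on all 24 rMAPC arrays and at 7.12 and 6.996 in the primary arrays, and it was not called on any day against d0 in either clone (limma, adjusted p from 0.63 to 0.96). Both probes were well above background on all arrays.

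**Figure D5:**
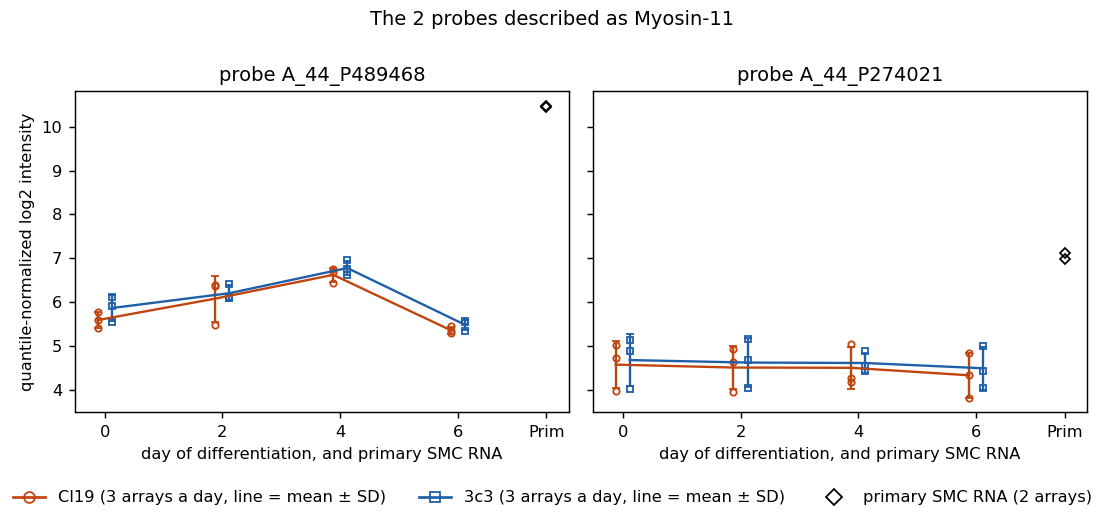
Quantile-normalized log2 intensity (vertical axis) of the 2 probes described as Myosin-11 against day, with circles for Cl19, squares for 3c3, lines for the mean ± SD of 3 arrays and diamonds for the 2 primary arrays. The left probe peaks on d4 at 6.44 to 6.96 and is back at 5.30 to 5.57 on d6, below the primary level of 10.45.

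Other genes of smooth muscle contraction and of the muscle Z-line were read from a list of 38, of which 33 were tested. In Cl19, 18 rose and 4 fell from d0 to d6 (median 1.02), and in 3c3, 18 rose and 1 fell (median 0.79). Over all 24442 probes, 22% rose and 7394 fell in Cl19, and 19.7% rose and 6989 fell in 3c3. The counts of this list and of the lists below stand beside these shares. In this list and the lists below, the largest rise and fall are those by the mean over both clones among genes called the same way in both, and a clone alone could have a larger one. The largest rise was that of *Pdlim3*, a Z-line adaptor, from 2.74 to 11.28 in Cl19 and from 1.87 to 9.29 in 3c3 (adjusted p = 5.7e-06 and 4.1e-05), where 2 and 1 of the 3 d0 arrays were above background. The largest fall was that of *Atp2a2*, the calcium pump that phospholamban restrains, by -1.64 and -1.55 (adjusted p = 3.7e-07 and 1.2e-06). In Cl19 alone *Fhl1* (from 10.88 to 8.88) and *Cav1* (from 3.70 to 1.91) fell further. The tropomyosins *Tpm1* (3.37 and 3.14) and *Tpm2* (5.81 and 5.93) were among those that rose.

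Compared with primary RNA on d6, 16 of these 33 genes were called lower in Cl19, 7 higher and 10 not called (median -0.36). For 3c3 the counts were 17, 7 and 9 (median -1.14). Of all 24442 probes tested, 32.8% were called lower and 9431 higher in Cl19, and 33.4% lower and 9308 higher in 3c3. The 4 lower genes described next were named after their values were seen. Others stood at or above the primary level in Cl19, such as *Tpm1* (15.10 against 15.04), *Fhl2* (12.96 against 11.66) and *Nexn* (11.20 against 9.48). *Actg2*, smooth muscle γ-actin, read 4.76 on d6 in Cl19, 6.81 in 3c3 and 11.996 in the primary RNA, with a change of 0.30 in Cl19 (adjusted p = 0.47) and a rise of 1.64 in 3c3 (adjusted p = 4.1e-04). *Lmod1*, leiomodin, was at 5.01 and 4.46 against 9.52 in the primary RNA, and as it was not above background on d0, it had risen at least 6.26-fold in Cl19 and at least 3.47-fold in 3c3, where 2 of the 3 d6 arrays measured it (adjusted p = 3.5e-09 and 3.3e-08). *Mylk*, the kinase of the regulatory light chain, was above background in 1 of the 6 d6 arrays and read 6.19 in the primary RNA. *Synpo2* was at 3.01 and 3.80 against 8.18.

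Nonmuscle and other counterparts of the markers were read from a list of 18. Of 14 tested, 10 rose and 2 fell in Cl19 and 6 rose and 4 fell in 3c3. *Myh10*, a nonmuscle myosin heavy chain, rose by 2.35 and 1.29 (adjusted p = 2.9e-08 and 6.6e-05) and *Myh9* by 1.08 and 0.64 (adjusted p = 9.3e-06 and 0.0022). *Csrp2* had the largest rise by the mean over both clones (2.11 and 1.97), and *Vim*, vimentin, the largest fall (-1.45 and -0.70), while in Cl19 alone *Csrp3* rose at least 5.83-fold and in 3c3 alone *Myh14* fell by 2.15. *Cnn3* rose by 1.56 in Cl19 (adjusted p = 1.6e-08) and differed by 0.25 in 3c3 (adjusted p = 0.14), and *Tagln2* differed by 0.17 and -0.09 (adjusted p = 0.39 and 0.65), beside 6.54 and 5.95 for *Tagln*. *Cnn2* had no probe of that name.

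Genes that act on these markers were read as well. Serum response factor, *Srf*, which binds CArG boxes in smooth muscle promoters, was at 13.18 on d0 and 13.93 on d6 in Cl19 (adjusted p = 0.0012) and at 13.27 and 13.65 in 3c3 (adjusted p = 0.077). On d4 *Srf* was higher than on d0 in both clones (1.31 and 0.55, limma, adjusted p = 4.8e-06 and 0.017). In the primary RNA it read 12.89. Of 10 tested genes from a list of 14 SRF cofactors and related factors, 2 rose and 3 fell in Cl19 and 1 rose and 2 fell in 3c3. Over all 24442 probes, 22% rose and 7394 fell in Cl19, and 19.7% rose and 6989 fell in 3c3. The counts of this list lie near those shares and are not read as a trait of it. *Mkl1*, the SRF coactivator MRTF-A, had the largest rise, 1.29 in each clone (adjusted p = 1.1e-07 and 1.9e-07), and *Gata6* the largest fall, -3.31 and -1.47 (adjusted p = 1.0e-08 and 2.4e-04). *Myocd*, myocardin, was above background on 1 of the 6 d6 arrays and read 7.04 in the primary RNA.

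*Smarcd3*, which encodes the chromatin remodelling subunit BAF60c that the study followed, was in Cl19 at 5.85 ± 0.20 (SD, n = 3) before treatment, at 11.63 ± 1.51 on d2, at 13.23 ± 0.36 on d4 and then at 11.98 ± 0.43, and in 3c3 on these days at 6.49 ± 0.18, 10.06 ± 0.39, 11.60 ± 0.21 and 11.76 ± 0.56. It was thus higher on d2 in both clones (5.78 and 3.57, adjusted p = 5.5e-08 and 2.1e-05), when *Tagln* had risen by 4.14 and 3.31, and it read 14.6 in the primary RNA. Of 21 tested TGFβ response genes from a list of 22, 15 rose and 2 fell in each clone, with medians of 2.08 and 1.62, and by the mean over both clones *Tgfb3* rose most (6.48 in Cl19, and in 3c3, where no d0 array was above background, at least 75.3-fold) and *Smad2* fell most (-1.102 and -0.89, adjusted p = 0.0033 and 0.016). In Cl19 alone *Tgfbi* (9.43, with 1 of 3 d0 arrays above background) and *Col1a1* (7.27) rose more and *Smad6* (-1.38) fell more, and in 3c3 alone *Tgfbr1* (-1.04, adjusted p = 0.044) did.

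The genes most like each marker were taken over the 24 rMAPC arrays after each clone's mean was removed, among 12213 genes with 1 probe each. The values describe arrays that share slides and days, and no p is given. *Tagln* was closest to *Plat*, tissue plasminogen activator (r = 0.99), and *Nppa*, the atrial natriuretic peptide (r = 0.99), *Cnn1* to LOC501280 and *Tagln* (both r = 0.98), *Smtn* to *Bsg* and *Jarid1b* (both r = 0.98), and *Cald1* to *Fam46b* and *Emd* (r = 0.98 and 0.97). *Myl9* was closest to *Ccdc85b* and *Rph3al* (r = 0.98 and 0.97), *Csrp1* to *Trp53inp2* and *Tpm1* (both r = 0.98), and *Tgfb1i1* to *Lcp1* and *Cnn1* (r = 0.98 and 0.97). For *Des* the closest were *Kcnk12* and *Abhd4* (r = 0.94 and 0.93) and for *Pln*, which had the weakest likeness to any gene, *Leprot* and *Ccng1* (r = 0.91 and 0.90). Among the 9 genes themselves r ran from 0.46 (*Smtn* with *Pln*) to 0.98 (*Tagln* with *Cnn1*).

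Markers of other cell types were read over the same days, and their part in the results was not tested. Beside their counts, 22% of all 24442 probes rose and 7394 fell in Cl19, and 19.7% rose and 6989 fell in 3c3. Of 32 striated muscle markers, which include cardiac genes that share an SRF-driven programme, 25 were tested, of which 12 rose and 4 fell in Cl19 and 11 rose and 3 fell in 3c3. Their summed intensity was 14.3 to 14.4 on the log2 scale on d0 and 16.6 to 16.9 on d6 in Cl19, 13.0 to 13.4 and 15.8 to 16.2 in 3c3, and 13.7 in the primary RNA. *Nppa*, which had the largest rise by the mean over both clones, was not above background on any d0 or primary array and rose at least 232-fold in Cl19 and at least 338-fold in 3c3. In 3c3 alone the fitted rise of *Myl7*, an atrial myosin light chain, was larger (11.47, with 1 of 3 d0 arrays above background). *Ttn*, titin, was the fall called in both clones, but it was above background on no d6 array and in 3c3 on no d0 array, and in Cl19 alone *Myh3*, embryonic myosin, fell further (-7.001, to 6.01). *Des* is expressed in striated as well as smooth muscle, and *Pln* in cardiac muscle.

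Of 8 epithelial markers, 8 rose in Cl19 and 7 in 3c3, with none lower, and *Krt7*, a keratin, rose most (10.93 and 7.99). The summed intensity of these markers was 17.0 to 17.2 on d0 in both clones, 18.3 to 18.5 on d6 in Cl19 and 17.97 to 18.02 in 3c3, and 10.8 in the primary RNA. Of 10 markers of synthetic smooth muscle, 5 rose and 1 fell in Cl19 and 6 rose and 1 fell in 3c3, with *Lgals3* rising most (3.34 and 3.01), while *Vcam1* fell in Cl19 (-4.69) and *Mgp*, called lower in 3c3, was above background there on neither day. Of 8 progenitor markers tested from a list of 10, 7 fell in Cl19 and 6 in 3c3 and 1 rose in each. *Pou5f1*, which encodes Oct4, fell by 9.15 in Cl19, where 1 of 3 d6 arrays was above background, and by 4.11 in 3c3, from 11.53 to 7.42, and *Foxa2* rose by 0.66 and 0.50.

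Of 8 fibroblast markers tested, 2 rose and 2 fell in Cl19 and 2 fell in 3c3 (*Fbln1* most by the mean over both, -4.01 and -0.91, and *Pdgfra* most in 3c3, -1.77), and of 6 endothelial markers tested from 8, 3 fell in Cl19 and 1 in 3c3, with *Pecam1* falling in both (-3.72 and -2.11) and *Tek* in Cl19 by at least 16.9-fold. Of 3 adipocyte markers tested from 8, 1 rose in Cl19 and 2 in 3c3, *Cfd* in both and *Cidec* in 3c3 by at least 6.73-fold, and of 6 blood and macrophage markers tested from 8, 1 rose and 1 fell in Cl19 and 2 rose in 3c3, *Lyz2* in both by at least 7.11-fold and at least 4.89-fold, and *Csf1r* most in 3c3 (6.24). Of 10 housekeeping genes, 4 fell and none rose in Cl19, and 3 fell and 1 rose in 3c3, with medians of -0.25 and -0.23 and the largest fall by the mean over both for *Tbp* (-0.79 and -1.099), while *Hprt1* fell most in Cl19 (-1.496).

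RefSeq promoters on assembly GRCr8, from 250 bases before to 50 bases after the start, were at hand for 7 of the 10 genes, *Cnn1*, *Smtn*, *Cald1* (2 starts), *Csrp1*, *Tgfb1i1*, *Pln* and *Des*. Those of *Tagln*, *Myl9* and *Myh11* were not at hand, though the study reported BAF60c at CArG boxes upstream of Sm22α (*Tagln*). The CArG box, to which SRF binds, was looked for on both strands in its strict form. None of these 8 promoters held it, and 1.64% of all 33469 promoters did. At so low a rate 8 promoters would most likely hold none, so the absence does not set these genes apart. For comparison the promoter of *Srf* held 2, the nearer to the start being shown in capitals with 20 bases on each side (GRCr8, chr9:21923995-21924044, plus strand), and the other in the lower-case stretch before it. A match or its absence describes only these letters in this window.
Srf: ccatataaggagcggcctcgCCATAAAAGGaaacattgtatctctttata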

How the data were processed

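RNA of 24 rMAPC samples and 2 primary SMC samples was hybridised to 1-colour Agilent whole rat genome arrays with 45018 features, of which 43379 measured genes. The authors deposited Feature Extraction 10.1.1.1 output, whose processed signal is a background-corrected intensity, and a table of log2 values, which equals log2 of that intensity with no scaling between arrays. The arrays' number limits the precision. The methods name quantile normalization, which was applied here to the log2 intensity of all gene features. Outlier features were then left out, and the features of 1 probe were averaged. Differences were tested with limma 3.58.1 (R 4.3.3, Python 3.11.15) in 1 fit over 9 groups, with Benjamini-Hochberg adjustment over 24442 probes, at a threshold of 0.05. A probe was tested where, in 1 group or more, no array failed the scanner software's call of well above background. A bound ("at least") sets the bright group's mean against the lowest signal well above background on the dim group's arrays. The members, the gene lists and the rule for the genes named (the members, the largest rise and fall of each list, and the 2 genes most like each member) were chosen with earlier results of these data known. The fit was tested on simulated data.

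Each of 7 slides held the 4 days of 1 replicate of a clone, or the primary arrays, and each clone and the primary RNA had a scan day of its own, so these cannot be told apart. Arrays of a slide deviated together from their group means: the correlation was over 0.1 in 18 of 18 pairs of days in 3c3 (0.20 to 0.75) and in 16 of 18 in Cl19 (0.06 to 0.49). The share of features well above background was 52.7% to 61.4% in Cl19, 43.2% to 57.1% in 3c3 and 43.6% to 44.5% in the primary RNA. The alternatives were 75th percentile scaling, normexp background correction with an offset of 50, the deposited log2 table, and no filter or a floor for dim probes. Further ones were the slide as a replicate block, a fit per clone, a gene-by-gene t-test and a version of the study's area method. The last were the mean over a gene's probes and leaving out a slide or each array.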

Additional observations from a re-analysis of the deposited data

Results flagged for a closer look

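The rise from d0 to d6 differed between the clones, by the test of the difference itself, for *Myl9* (2.33 higher in Cl19), *Tgfb1i1* (1.78), *Cald1* (1.20) and *Cnn1* (0.89). The negative controls of 1 of the 3 slides of 3c3 read higher, and without that slide 2 of these 4 genes passed, *Myl9* and *Tgfb1i1*. The part of scan day and slide in these differences was not tested.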

How the results depend on the processing

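Counts below are of the 9 genes. A version of the study's area method called 4 in Cl19 and 1 in 3c3 over time. Its noise profiles were differences between single arrays, taken again relative to their first point, whereas the courses were means of 3 arrays. The study's methods do not describe that further subtraction, so these counts cannot be taken as the study's own. The gene-by-gene t-test called 3 on d2 in Cl19, 5 on d6 in 3c3 and 0 from d2 to d4 in either clone. Without the 3c3 slide of higher background 3 were called on d2 in 3c3, 3 from d2 to d4, and 2 for the difference between the clones on d6. Without a filter on dim probes, or with the mean over a gene's probes, 3 were called from d2 to d4 in 3c3. For *Cald1* that mean takes in probes that were well above background on no array. Normexp gave 1 higher from d4 to d6 and 1 above the primary level on d6 in Cl19. Against the primary RNA, the unscaled table gave 5 higher and 0 lower in Cl19 on d6, and 4 higher and 3 lower in 3c3. On d0 it gave 1 higher in 3c3. Of all 24442 probes tested, that table called 18111 higher and 1640 lower in Cl19 on d6, and 17656 and 1854 in 3c3. On d0 in 3c3 it called 16590 higher and 2599 lower. Its counts of higher genes are thus not read as a trait of the 9 genes. On d6 the 75th percentile scaling gave 7 lower in Cl19 and added *Csrp1* to those lower in 3c3. With this scaling 9405 of all probes were called lower and 7579 higher in Cl19, and 9265 and 7668 in 3c3. The distance was 4.23 and 1.72 on d0 and d6 in Cl19 and 4.10 and 2.26 in 3c3 with 75th percentile scaling, 3.51 and 3.29 on d0 with normexp, and 2.18 and 2.11 on d0 and 1.08 on d6 in 3c3 in the unscaled table. In the unscaled table the d6 difference from primary RNA reversed to 0.21 (*Tagln*), 1.51 (*Cnn1*), 0.66 (*Smtn*) and 0.17 (*Tgfb1i1*) in Cl19 and to 1.28 (*Cnn1*), 0.037 (*Smtn*), 2.16 (*Cald1*) and 1.09 (*Csrp1*) in 3c3, and with 75th percentile scaling to -0.88 (*Csrp1*) in Cl19. The clone difference of *Smtn* on d6, near 0, reversed to -0.13 (75th percentile), -0.12 (unscaled table) and -0.0874 (without the slide), and with 1 array left out ran from -0.10 to 0.095. Leaving out 1 array gave 3 to 3 genes from d2 to d4 in 3c3, 0 to 2 from d4 to d6 in Cl19, 0 to 1 above the primary level in Cl19 on d6 and 0 to 3 for the clone difference on d2. With the slide as a replicate block no count moved by over 1.5 times: 7 and 5 genes were called on d2, 8 and 8 on d4 and 9 and 8 on d6 in Cl19 and 3c3, and *Pln* lost its call over all days in Cl19 (adjusted p = 0.063). For reversed and moved values the cause was not tested. Of the counts and distances under an alternative, 299 stayed within the limits of replicate spread or 1.5 times and 37 did not. The clone difference was not run with the t-test or the fit per clone. *Des* and *Pln*, with SEs of 0.54 and 0.48, were limited most by the spread between arrays.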
